A study of Homo sapiens with 6 samples.

Results

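The serine/arginine-rich (SR) proteins, the heterogeneous nuclear ribonucleoproteins (hnRNPs) and the related RBM and TRA2 proteins were followed in ocular melanoma cells with the RNA demethylase ALKBH3 knocked down. The genes were chosen by name alone: protein-coding symbols of GENCODE release 29 that begin with HNRNP or TRA2, or with SRSF or RBM and a digit. Of the 79 annotated symbols that match, 68 had listed transcripts, out of 11387 listed genes in all. They were 11 of 12 SRSF genes, 21 of 27 HNRNP genes, 34 of 38 RBM genes and 2 of 2 TRA2 genes. SRSF12, RBM11, RBM20, RBM44, RBM46, the 4 HNRNPCL genes, HNRNPA1P48 and the read-through HNRNPUL2-BSCL2 were not listed and have no value here. All 68 listed genes averaged at least 1 FPKM over the 6 libraries and all 68 were tested, together with every other gene at that level (10475 in all).

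SR proteins carry RNA-recognition motifs and a domain of repeated arginine and serine, bind exonic enhancers, and recruit the spliceosome to nearby splice sites once kinases have phosphorylated that domain. hnRNPs coat nascent transcripts and often have the opposite effect, silencing exons or looping them out, so the balance between both groups sets how often an alternative exon is included. Many genes of both groups regulate the splicing of their own transcripts: unproductive forms with a poison exon or retained intron feed back on the protein's level, and cassette exons in the coding sequence change the low-complexity domain.

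The knockdown cells gave 3 libraries labelled shALKBH3, line 92.1 with the genotype given as ALKBH3 knockdown, and they were set against 3 libraries labelled NC, the same line with the genotype given as WT. The prefix sh is the usual one for a short hairpin RNA; the labels give neither the number of hairpins nor what, if any, construct the NC cells received. Line 92.1 is an established ocular melanoma line, grown in medium with serum, and all 6 libraries come from it. Nothing in the labels ties the replicates of a group to separate cultures, so each p-value weighs a difference against the spread of these 6 samples, and that spread may be purely technical.

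The values are FPKM, fragment numbers scaled to transcript length and to the size of the library, for 28900 transcripts, and sequencing depth is unknown. ALKBH3 itself measured 3.29, 3.60 and 4.24 FPKM in the shALKBH3 libraries, against 10.5, 10.6 and 9.19 FPKM in the NC libraries, a log2 difference of -1.24 (SE 0.118, limma adjusted p = 0.0079). That call was kept in 13 of 14 other settings and lost where only its most abundant transcript was tested (limma adjusted p = 0.063, and 0.0065 to 0.063 over the 14). Outside the 14, it was also lost where replicate number was added to the model, with or without a length and GC correction. Listed FPKM summed to between 326408 and 333506 in the shALKBH3 libraries and to between 340522 and 360889 in the NC libraries. The 68 genes took between 0.952% and 0.964% of that sum in shALKBH3, against 0.934% to 0.981% in NC. Of 12 melanocyte markers only MITF and RAB38 were listed, and PMEL, MLANA, TYR, TYRP1, DCT and SOX10, which define pigment cells, were not. MITF had 10.3 to 14.0 FPKM in shALKBH3 and 3.29 to 9.53 FPKM in NC, and RAB38 had 9.16 to 14.1 FPKM in shALKBH3 and 11.9 to 16.1 FPKM in NC. Of the markers of other cell types, KRT18 (209 to 291 FPKM in shALKBH3, 202 to 235 FPKM in NC) and COL1A1 (19.9 to 24.6 FPKM in shALKBH3, 19.0 to 24.0 FPKM in NC) were the 2 listed of 5 epithelial, 5 fibroblast, 4 endothelial and 5 immune genes. Their part in any result was not tested.

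The SR and hnRNP genes were abundant. The median member was at 19.2 FPKM over the 6 libraries, against 8.62 FPKM for all genes tested. HNRNP genes had the highest median level (70.6 FPKM), followed by SRSF genes (29.96 FPKM), TRA2 genes (21.5 FPKM) and RBM genes (8.38 FPKM). HNRNPA1, HNRNPA2B1, HNRNPK, HNRNPUL1 and HNRNPC were the most abundant members, and RBM38 the least abundant at 1.80 FPKM. Of the 68 genes, 13 (19.1%) kept the highest library under 1.2 times the lowest, against 8.63% of all genes, and 13 (19.1%) had a highest library over 2 times the lowest, against 28.8% of all genes. Those under 1.2 times included the splicing repressor HNRNPA2B1, HNRNPK, which binds C-rich RNA, HNRNPF, which binds runs of G, and SRSF3, SRSF5 and SRSF6.

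At the gene level, 1 of the 68 members was higher in shALKBH3 at an adjusted p under 0.05 and 0 were lower. Of all genes tested, 1.76% passed that threshold (1.28% higher and 0.477% lower). The test was limma on log2(FPKM + 1), two-sided and adjusted over all genes, and every log2 difference below is on that scale, which understates the change of low genes. At an unadjusted p under 0.05 3 members were higher, and 7 were lower, together 14.7% of the members, against 17.1% of all genes (941 higher and 854 lower). In 15 members the groups did not overlap, 4 higher and 11 lower in shALKBH3, or 22.1% of the members, against 24.9% of all genes (12.9% higher and 12% lower). With the libraries scaled to the same listed sum, 7 members lay higher and 6 lower without overlap. The matching share of all genes is not given, so these counts cannot be set against it. Of all genes called under that scaling, 153 were higher and 24 lower, against 134 higher and 50 lower on the deposited scale. The median member differed by -0.06 on the log2 scale and the median gene by -0.01 on the deposited scale. With equal listed sums the member median was 0.03 and the median of all genes 0.07. The 95% interval of the difference lay within 1.5-fold either way for 41 members (60.3%), against 52.6% of all genes.

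**Figure D1:**
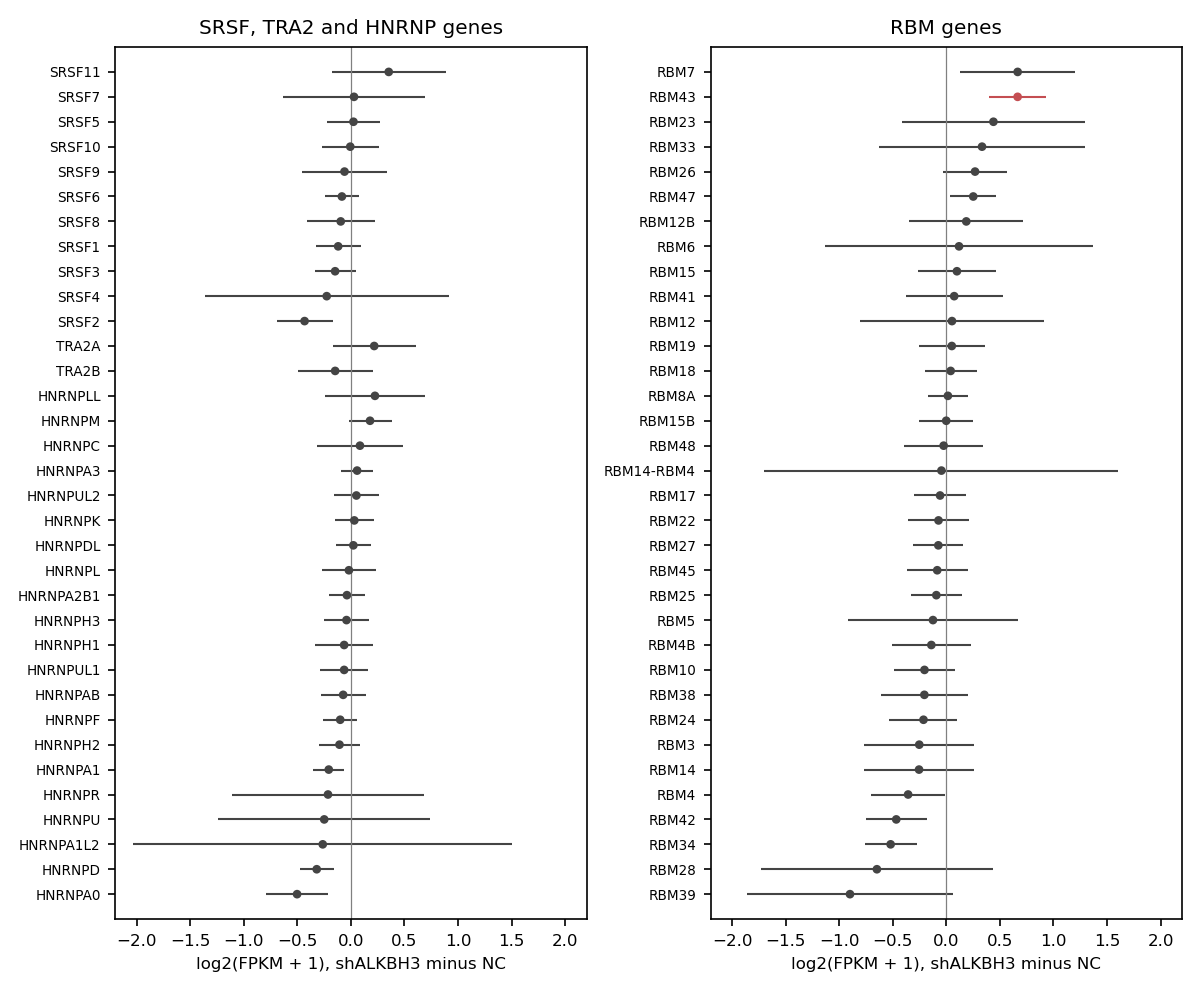
Difference between shALKBH3 and NC for each of the 68 genes, as log2(FPKM + 1) on the horizontal axis, with SRSF, TRA2 and HNRNP genes in the left panel and RBM genes in the right panel; points are estimates and lines their 95% intervals. RBM43, in red, was the 1 gene past an adjusted p of 0.05; the 4 widest intervals are those of HNRNPA1L2, RBM14-RBM4, RBM6 and SRSF4.

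The gene past the threshold was RBM43 (ENSG00000184898, chromosome 2), a gene with 1 listed transcript that encodes a protein with an RNA-recognition motif. It measured 9.28, 11.3 and 10.5 FPKM in the shALKBH3 libraries, against 6.15, 6.64 and 5.68 FPKM in the NC libraries. The lowest shALKBH3 library lay above the highest NC library. RBM43 averaged 10.4 ± 1.03 FPKM in shALKBH3 and 6.16 ± 0.481 FPKM in NC (SD, n = 3 each), 68.4% higher, with a log2 difference of 0.67 (SE 0.110, limma adjusted p = 0.048). The call is at the edge of the threshold: it was kept in 4 of 14 other settings and was lost on leaving out any single library, with log2 differences of 0.55 to 0.75 and adjusted p from 0.023 to 0.19. RBM43 was also lost where replicate number was added to the model, which these 14 leave out.

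Among the SR proteins 0 of 11 passed the threshold. At an unadjusted p under 0.05 1 was lower (9.09%, against 17.1% of all genes in both directions). That gene was SRSF2 (ENSG00000161547, chromosome 17), a nuclear SR protein that binds exonic enhancers. SRSF2 measured 23.6, 26.5 and 22.7 FPKM in shALKBH3, against 30.1, 32.6 and 36.9 FPKM in NC. The groups did not overlap, the log2 difference was -0.43 (SE 0.107), and the limma adjusted p was 0.13. SRSF3, the smallest SR protein and an adaptor for mRNA export, had 36.5, 40.5 and 35.4 FPKM in shALKBH3, against 41.6, 41.4 and 41.6 FPKM in NC. Its NC libraries were nearly equal and all above the shALKBH3 ones, by a log2 difference of -0.15 (limma adjusted p = 0.39). SRSF6 also had groups that did not overlap, at 46.1 ± 1.31 FPKM in shALKBH3 and 48.9 ± 0.476 FPKM in NC (SD, n = 3 each), a difference of -0.08 on the log2 scale.

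SRSF1, the founding SR protein, measured 53.7, 54.3 and 57.6 FPKM in shALKBH3, against 55.0, 60.4 and 65.1 FPKM in NC, and its groups overlapped (log2 difference -0.12, interval -0.33 to 0.09). SRSF9 was the most abundant SR gene, at 64.4, 84.9 and 85.3 FPKM in shALKBH3, against 96.2, 69.8 and 78.8 FPKM in NC. Its log2 difference of -0.06 (interval -0.45 to 0.33) changed sign under several other settings. SRSF11 had the highest positive difference of the family, 0.35 on the log2 scale, and its second shALKBH3 library stood apart: shALKBH3 had 27.4, 47.0 and 28.0 FPKM, against 24.2, 28.7 and 24.4 FPKM in NC. In the second shALKBH3 library the transcript SRSF11-203 alone was at 27.4 FPKM, against 8.50 and 7.15 FPKM in the other shALKBH3 libraries and 5.67 to 7.35 FPKM in NC. SRSF5, SRSF7, SRSF8 and SRSF10, the last a splicing repressor when dephosphorylated, lay between -0.10 and 0.03 on the log2 scale. SRSF4 was too variable to place, at 15.5, 14.4 and 10.7 FPKM in shALKBH3, against 31.9, 7.58 and 15.9 FPKM in NC.

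The SR-like activators TRA2A and TRA2B, which bind GAA-rich enhancers, did not pass the threshold. TRA2A measured 33.2, 30.2 and 28.6 FPKM in shALKBH3, against 20.7, 27.9 and 31.2 FPKM in NC (log2 difference 0.22, limma adjusted p = 0.51). TRA2B measured 16.3, 11.8 and 12.98 FPKM in shALKBH3, against 16.3, 13.3 and 15.9 FPKM in NC (log2 difference -0.15, limma adjusted p = 0.63). Both pairs of groups overlapped.

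**Figure D2:**
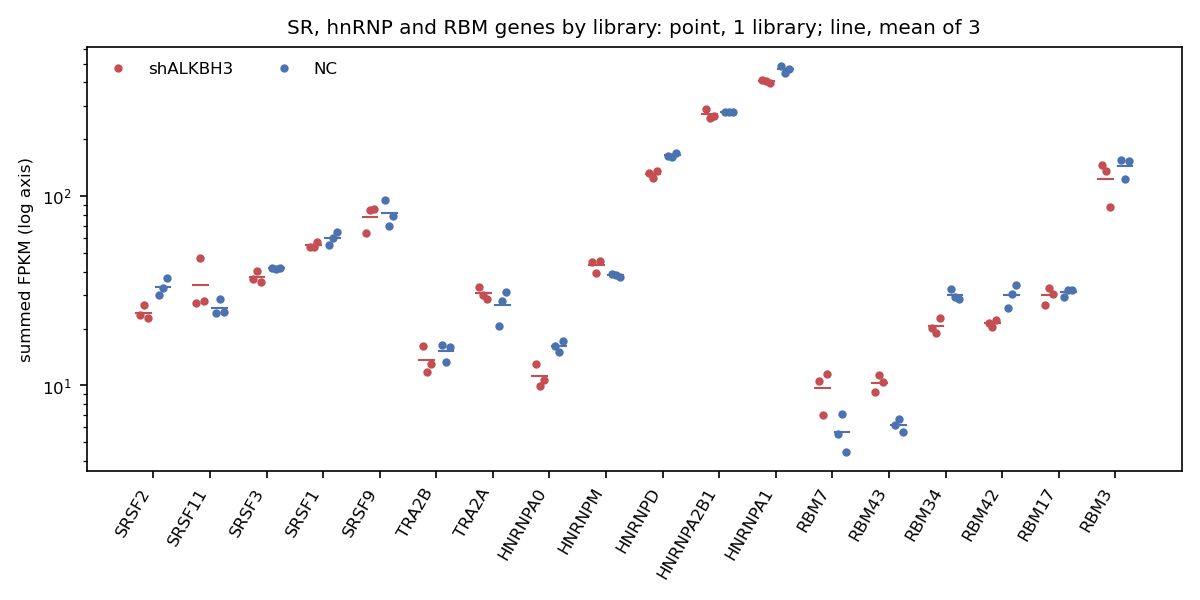
Summed FPKM on a log axis for the 18 genes named by rule, with each library as a point and the mean of 3 libraries as a line, shALKBH3 in red left of NC in blue. Groups do not overlap for SRSF2, SRSF3, HNRNPA0, HNRNPM, HNRNPD, HNRNPA1, RBM43, RBM34 and RBM42.

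Among the hnRNPs 0 of 21 passed the threshold. At an unadjusted p under 0.05 3 were lower, HNRNPD, HNRNPA0 and HNRNPA1 (14.3%, against 17.1% of all genes in both directions). HNRNPD (AUF1; ENSG00000138668, chromosome 4), which binds AU-rich elements and promotes decay of the mRNAs that carry them, measured 133, 125 and 137 FPKM in shALKBH3, against 164, 161 and 169 FPKM in NC. It averaged 132 ± 6.03 FPKM in shALKBH3 and 164 ± 3.77 FPKM in NC (SD, n = 3 each), 19.9% lower, and the gap between the groups was wider than the spread within either. The log2 difference was -0.32 (SE 0.066, interval -0.48 to -0.16, limma adjusted p = 0.088). HNRNPA0 (ENSG00000177733, chromosome 5), an AU-rich element binder encoded by a single exon, had 12.9, 9.92 and 10.6 FPKM in shALKBH3, against 16.2, 15.0 and 17.3 FPKM in NC. Its groups did not overlap either (log2 difference -0.50, SE 0.120, limma adjusted p = 0.12).

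HNRNPA1 (ENSG00000135486, chromosome 12), a well studied exon silencer, was the most abundant member. It measured 410.5, 408.6 and 399.5 FPKM in shALKBH3, against 487, 451 and 469 FPKM in NC, 13.4% lower, and the groups did not overlap (log2 difference -0.21, SE 0.060, limma adjusted p = 0.18). Its close paralogue HNRNPA2B1 had 291, 259 and 266 FPKM in shALKBH3, against 279, 279 and 278 FPKM in NC. There the shALKBH3 libraries lay on both sides of the NC libraries, and the interval of the log2 difference ran from -0.20 to 0.13. Another A-group protein, HNRNPA3, measured 114 ± 3.75 FPKM in shALKBH3 and 110 ± 1.73 FPKM in NC (SD, n = 3 each), with an interval of -0.09 to 0.21.

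HNRNPM, which binds GU-rich RNA, was the 1 hnRNP whose shALKBH3 libraries all lay above the NC libraries: 45.1, 39.6 and 45.7 FPKM in shALKBH3, against 38.9, 38.3 and 37.4 FPKM in NC (log2 difference 0.18, limma adjusted p = 0.34). HNRNPF had non-overlapping groups the other way, at 107, 99.2 and 102 FPKM in shALKBH3, against 109, 114 and 108 FPKM in NC (log2 difference -0.10). The difference for HNRNPK was 0.03 (interval -0.15 to 0.21), and for HNRNPL, which binds CA repeats, -0.02 (interval -0.27 to 0.23). HNRNPC, which binds U tracts and keeps Alu-derived exons silent, differed by 0.08 (interval -0.32 to 0.48). HNRNPDL, HNRNPAB, HNRNPH1, HNRNPH2, HNRNPH3, HNRNPUL1 and HNRNPUL2 lay between -0.11 and 0.05, and HNRNPLL at 0.22, all on the log2 scale.

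A few hnRNP sums moved more between replicates than between groups. HNRNPU, a nuclear scaffold protein, had 48.3, 37.3 and 73.5 FPKM in shALKBH3, against 77.4, 85.8 and 33.8 FPKM in NC. Most of that movement sat in HNRNPU-210, a transcript with an incomplete end, at 19.3, 10.2 and 37.1 FPKM in shALKBH3, against 32.9, 56.8 and 2.75 FPKM in NC. The full transcript HNRNPU-226 stayed between 20.8 and 26.1 FPKM in shALKBH3 and between 21.2 and 25.1 FPKM in NC. HNRNPR had 63.6, 45.5 and 68.5 FPKM in shALKBH3, against 38.3, 102 and 79.5 FPKM in NC. HNRNPA1L2, a retrocopy nearly identical to HNRNPA1, had 2.22, 11.8 and 10.7 FPKM in shALKBH3, against 14.7, 12.5 and 2.94 FPKM in NC. Fragments shared with HNRNPA1 could be assigned to either gene, so its level is uncertain.

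Of the 34 RBM genes, RBM43 passed the threshold. Before adjustment p was under 0.05 for RBM43, RBM7 and RBM47, which were higher, and for RBM34, RBM42 and RBM4, which were lower. Together these were 17.6% of the RBM genes, against 17.1% of all genes. RBM34 (ENSG00000188739, chromosome 1), a nucleolar RNA-binding protein, measured 20.1, 19.0 and 22.9 FPKM in shALKBH3, against 32.3, 29.2 and 28.5 FPKM in NC. All shALKBH3 libraries were lower, by 31.2% on average (log2 difference -0.52, SE 0.10, limma adjusted p = 0.076). RBM42, which associates with HNRNPK, had 21.3, 20.3 and 22.3 FPKM in shALKBH3, against 25.6, 30.6 and 33.8 FPKM in NC (log2 difference -0.47, limma adjusted p = 0.14). RBM4, a splicing and translation regulator, had 18.6, 17.7 and 17.6 FPKM in shALKBH3, against 19.0, 23.6 and 28.0 FPKM in NC (log2 difference -0.36, limma adjusted p = 0.29). RBM4 lies beside RBM14 and RBM4B, and a read-through of the first pair is annotated as RBM14-RBM4; its sum ran from 1.2 to 5.95 FPKM in shALKBH3 and from 0.561 to 6.40 FPKM in NC, and how fragments were divided between them was not tested.

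RBM7, the RNA-binding subunit of the nuclear exosome targeting complex, had 10.5, 6.97 and 11.5 FPKM in shALKBH3, against 5.54, 7.06 and 4.46 FPKM in NC. The second library of each group overlapped (log2 difference 0.67, SE 0.222, limma adjusted p = 0.22). RBM47, the cofactor of C-to-U editing, had 12.5, 13.7 and 13.4 FPKM in shALKBH3, against 10.9, 11.6 and 10.3 FPKM in NC, without overlap (log2 difference 0.25, limma adjusted p = 0.24). RBM26 also did not overlap, at 24.5 ± 3.11 FPKM in shALKBH3 and 20.2 ± 1.89 FPKM in NC (SD, n = 3 each). The cold-induced RBM3 was the most abundant RBM gene, at 147, 135 and 87.3 FPKM in shALKBH3, against 155, 124 and 154 FPKM in NC, and its groups overlapped.

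RBM17, a splicing factor that pairs with U2 components, had 29.9 ± 3.11 FPKM in shALKBH3 and 31.1 ± 1.5 FPKM in NC (SD, n = 3 each). RBM8A, the Y14 subunit of the exon junction complex, had 23.9 ± 0.590 FPKM in shALKBH3 and 23.6 ± 1.32 FPKM in NC (SD, n = 3 each). RBM22, part of the catalytic core, differed by -0.07, and RBM25, which associates with U1 snRNP, by -0.09. RBM15 and RBM15B, adaptors of the m6A methyltransferase, differed by 0.10 and 0.00, and RBM10, an exon-skipping factor, by -0.20. RBM39, a U2AF-related splicing factor, had the largest negative difference of the 68 genes, -0.90 on the log2 scale, yet its interval ran from -1.86 to 0.06: shALKBH3 libraries were at 3.90, 3.36 and 4.11 FPKM, against 4.24, 15.3 and 7.29 FPKM in NC. The listed transcripts RBM39-204, RBM39-211 and RBM39-217 have an incomplete end. RBM5 and RBM6, neighbours on chromosome 3 that regulate exon skipping, stood apart in replicate 3, RBM6 in both groups and RBM5 in shALKBH3. RBM6 had 10.6, 10.96 and 26.6 FPKM in shALKBH3, against 8.38, 10.4 and 27.0 FPKM in NC, while RBM5 had 20.4, 17.6 and 7.81 FPKM in shALKBH3, against 15.0, 16.1 and 15.5 FPKM in NC. The remaining RBM genes (RBM12, RBM12B, RBM14, RBM18, RBM19, RBM23, RBM24, RBM27, RBM28, RBM33, RBM38, RBM41, RBM45, RBM48 and RBM4B) differed by -0.65 to 0.44 on the log2 scale, and each had overlapping groups.

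The choice between transcripts of a gene was then followed as each transcript's share of its gene's listed FPKM. The 68 genes listed 258 transcripts, and 56 genes listed at least 2. All 258 are annotated as protein_coding; no retained-intron, nonsense-mediated-decay or processed transcript of a member is in the tables, so the poison-exon forms of SR and hnRNP genes could not be measured. By limma on the arcsine square root of the share, 0 of 246 member transcripts passed an adjusted p of 0.05, against 0.348% of all 24433 transcripts tested, and the smallest member value was 0.53. At an unadjusted p under 0.05 there were 6 (2.44% of the members, 5.26% of all), and 1 passed the adjusted threshold in a second test, limma's diffSplice, which called 0.585% of all: HNRNPA1-201, a transcript named after its values were seen. The groups did not overlap for 31 member transcripts (12.6%), against 11.7% of all. As single transcripts on the log2(FPKM + 1) scale, 0 of 210 members passed by limma, against 0.472% of all, and 17 had an unadjusted p under 0.05 (8.10% of the members, 9.74% of all). Transcript values were noisier than gene sums: the median SD within a group was 0.336 on the log2 scale for member transcripts and 0.144 for member gene sums.

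In HNRNPM, whose sum differed by 13.7%, single transcripts differed more, though none passed the threshold. HNRNPM-202 took 32.5%, 62.5% and 36.8% of the sum in shALKBH3, against 66.2%, 76.8% and 76.4% in NC, without overlap (limma adjusted p = 0.84). HNRNPM-217 took 55.6%, 13.5% and 27.3% in shALKBH3, against 13.7%, 5.45% and 4.65% in NC. The rest of the sum was made up differently in each shALKBH3 library: HNRNPM-204 appeared only in the second (5.55 FPKM) and HNRNPM-215 only in the third (8.47 FPKM), and both were listed at 0 in every NC library.

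In SRSF2, transcript SRSF2-203 took 29.3%, 24.0% and 31.0% of the sum in shALKBH3, against 15.7%, 14.2% and 18.1% in NC, without overlap (limma adjusted p = 0.84). Its own level was 6.92, 6.38 and 7.06 FPKM in shALKBH3, against 4.72, 4.62 and 6.67 FPKM in NC, while SRSF2-205 had 7.93, 13.7 and 2.24 FPKM in shALKBH3, against 13.9, 16.1 and 20.7 FPKM in NC. Of these transcripts, SRSF2-205 was the lower one in shALKBH3 in mean, and SRSF2-203 was the higher one, though its FPKM overlapped between the groups. SRSF2-202, which has the same coding length as SRSF2-203 (663 nt), is another large form. It took 34.7%, 24.2% and 55.8% of the sum in shALKBH3, against 36.0%, 33.0% and 23.9% in NC. In TRA2A, TRA2A-201 took 75.8%, 78.3% and 60.6% in shALKBH3, against 17.5%, 56.9% and 57.7% in NC. The low value is the first NC library, where TRA2A-202 and TRA2A-212 made up most of the sum.

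In the RBM family, RBM4-201 took 16.0%, 3.34% and 10.8% of the RBM4 sum in shALKBH3, against 28.99%, 37.2% and 20.7% in NC. RBM5-201 took 78.1%, 74.9% and 39.5% in shALKBH3, against 85.5%, 81.9% and 90.7% in NC, and RBM5-214 took the remainder. RBM6-201 had the smallest share p of the members and was a minor form, at 12.1%, 10.0% and 2.85% in shALKBH3, against 0.0699%, 0.267% and 0.575% in NC. Its mean over the 6 libraries was under 1 FPKM, so its level was not tested. None of these 3 genes passed the threshold for a share.

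**Figure D3:**
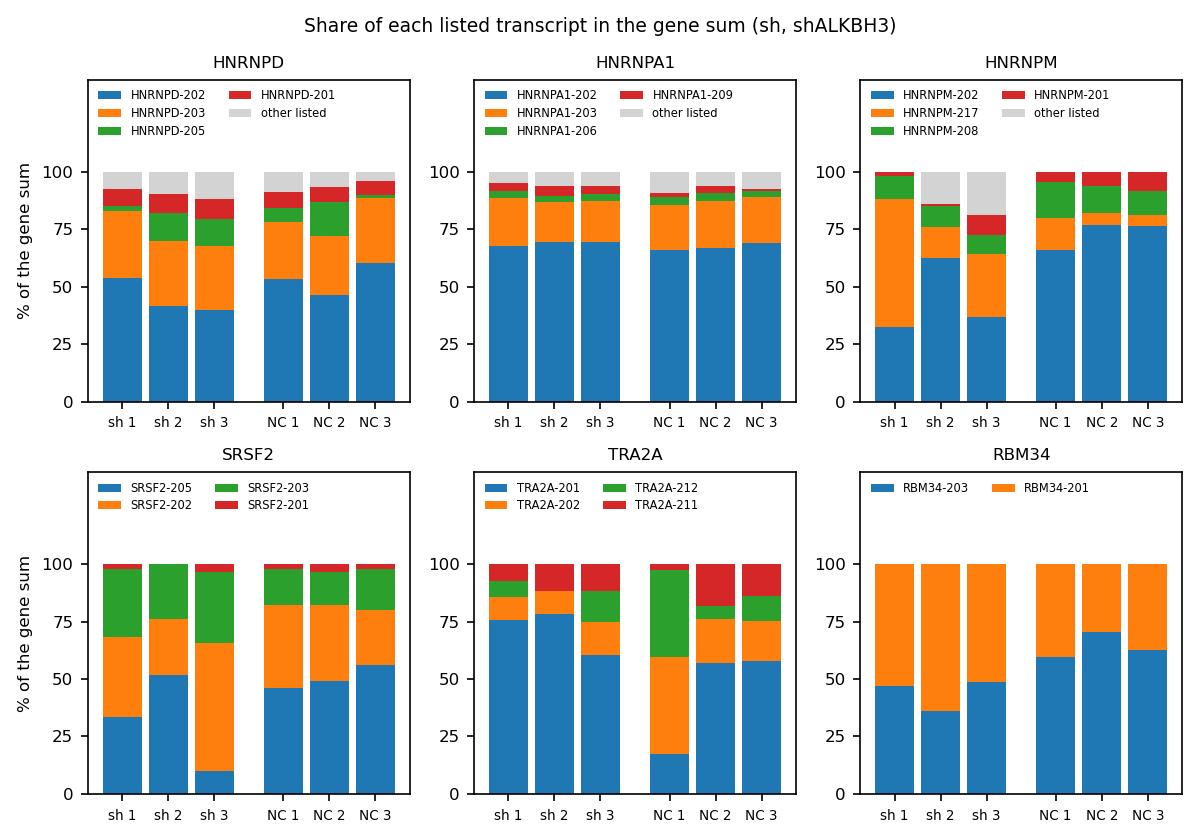
Share of each listed transcript in the summed FPKM of 6 genes, in %, 1 bar per library with the 3 shALKBH3 bars (sh) left of the 3 NC bars; the 4 most abundant transcripts are coloured and the others grey. HNRNPA1 bars are nearly alike in all 6 libraries, HNRNPM-202 is smaller in the shALKBH3 bars, and RBM34-201 is larger in them.

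Cassette exons, which are either kept or skipped whole, were read from the same transcripts as the share of FPKM in transcripts that keep the exon among those that span it; this measure was added after the values were seen. By limma 0 of 58 exons in member genes passed an adjusted p of 0.05, against 0.411% of the 5596 exons tested. At an unadjusted p under 0.05 there were 2, both in RBM6 (3.45% of the member exons, 5.09% of all). The groups did not overlap for 6 exons, in RBM6, RBM34, RBM33, SRSF10 and HNRNPA3 (10.3%, against 11.8% of all). Both RBM6 exons are read from RBM6-201 against RBM6-204 and have the same values, so they are 1 measurement in each of these counts.

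The exons below are shown because they set the domain make-up of abundant members and because several come from one ancestral gene. Capitals mark the cassette exon and lower case the 6 coding bases on each side in the spliced transcript. HNRNPD has 1 such exon of 57 nt near its start (chr4:82371528-82371584, minus strand, GRCh38, exon 2, coding) and 1 of 147 nt near its end (chr4:82356537-82356683, minus strand, exon 7, coding); keeping or skipping each makes the isoforms of AUF1.
HNRNPD 57 nt: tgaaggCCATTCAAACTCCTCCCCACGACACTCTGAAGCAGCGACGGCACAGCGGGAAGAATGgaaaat
HNRNPD 147 nt: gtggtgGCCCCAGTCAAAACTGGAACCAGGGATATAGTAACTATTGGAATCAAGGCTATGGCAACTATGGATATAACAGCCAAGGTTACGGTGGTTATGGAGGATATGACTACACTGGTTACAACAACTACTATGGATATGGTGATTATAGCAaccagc

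In transcripts that span it, the 57-nt exon was kept in 41.9%, 54.2% and 54.6% of FPKM in shALKBH3, against 41.9%, 50.01% and 37.6% in NC. The groups overlapped. HNRNPD-205 keeps this exon and has an incomplete end. It took 2.13%, 12.2% and 11.6% of the gene sum in shALKBH3, against 6.26%, 15.1% and 1.15% in NC. The 147-nt exon was kept in 67.8%, 63.6% and 63.4% in shALKBH3, against 70.5%, 67.7% and 69.8% in NC. There the first shALKBH3 library lay just above the lowest NC library (limma adjusted p = 0.91). By transcript, HNRNPD-202, which has the second exon and not the first, carried most of the lower gene sum: 71.9, 51.8 and 54.6 FPKM in shALKBH3, against 87.1, 75.1 and 101 FPKM in NC (log2 difference -0.56, limma adjusted p = 0.41). HNRNPD-203, which lacks the 147-nt exon, had 38.8, 35.6 and 38.2 FPKM in shALKBH3, against 41.0, 40.7 and 48.2 FPKM in NC. HNRNPD-201, which keeps both, had 9.70, 10.3 and 11.8 FPKM in shALKBH3, against 10.9, 10.3 and 10.1 FPKM in NC.

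The paralogues HNRNPAB (chr5:178210132-178210272, plus strand, exon 7) and HNRNPDL (chr4:82426463-82426633, minus strand, exon 6) have an exon at the matching place, also coding, that adds glycine- and tyrosine-rich sequence.
HNRNPAB 141 nt: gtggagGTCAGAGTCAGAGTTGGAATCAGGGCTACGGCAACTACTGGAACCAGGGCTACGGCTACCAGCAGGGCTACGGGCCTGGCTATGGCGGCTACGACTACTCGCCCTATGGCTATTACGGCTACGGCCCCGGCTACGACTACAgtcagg
HNRNPDL 171 nt: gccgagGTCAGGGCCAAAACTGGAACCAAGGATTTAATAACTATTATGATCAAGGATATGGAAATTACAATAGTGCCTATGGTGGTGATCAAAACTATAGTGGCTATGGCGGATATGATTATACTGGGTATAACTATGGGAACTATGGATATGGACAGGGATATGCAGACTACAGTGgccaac

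With gaps left out of the alignment, the 147-nt exon of HNRNPD was identical to that of HNRNPAB at 74.4% of 129 positions and to that of HNRNPDL at 76.9% of 143 positions, and HNRNPAB and HNRNPDL matched at 70.0% of 140. HNRNPAB kept its exon in 84.1%, 82.3% and 87.4% of FPKM in shALKBH3, against 85.2%, 85.6% and 83.1% in NC, read from HNRNPAB-202 and HNRNPAB-204, which keep it, and HNRNPAB-201 and HNRNPAB-205, which skip it (57.8 FPKM together on average). The same exon read from HNRNPAB-206 and HNRNPAB-208 (7.40 FPKM together) was kept in 100%, 61.8% and 0% in shALKBH3, against 63.0%, 100% and 73.7% in NC, so its rate in HNRNPAB depends on the transcripts compared. HNRNPDL kept it in 97.1%, 96.2% and 96.8% in shALKBH3, against 97.7%, 96.4% and 97.9% in NC. In each of the 3 genes the groups overlapped.

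HNRNPA2B1 (chr7:26197831-26197866, minus strand, exon 2) makes its forms with an exon near the start of the protein, which distinguishes form B1 from form A2.
HNRNPA2B1 36 nt: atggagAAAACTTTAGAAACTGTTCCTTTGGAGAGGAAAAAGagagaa

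The HNRNPA2B1 exon was kept in 3.13%, 3.54% and 3.67% in shALKBH3, against 2.85%, 4.74% and 3.85% in NC. Form A2 therefore made up nearly all of the gene's FPKM in each of the 6 libraries. In the paralogue HNRNPA1, both main transcripts were lower in every shALKBH3 library: HNRNPA1-202 had 279, 284 and 277 FPKM in shALKBH3, against 321, 302 and 324 FPKM in NC, and HNRNPA1-203 had 85.3, 70.8 and 71.1 FPKM in shALKBH3, against 94.7, 92.8 and 93.3 FPKM in NC. A minor transcript, HNRNPA1-201, split the NC libraries, with 2.32, 3.06 and 2.27 FPKM in shALKBH3, against 24.0, 3.28 and 21.0 FPKM in NC.

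The exons of RBM34 (chr1:235152706-235152765, minus strand, exon 5) and SRSF7 (chr2:38746144-38746179, minus strand, exon 7) belong to transcripts among the 8 with the smallest share p, and the SRSF7 exon lies in the part that encodes the arginine-serine domain.
RBM34 60 nt: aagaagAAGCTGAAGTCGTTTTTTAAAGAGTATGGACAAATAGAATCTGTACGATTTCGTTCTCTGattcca
SRSF7 36 nt: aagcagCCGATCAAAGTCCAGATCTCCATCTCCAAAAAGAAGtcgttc

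The RBM34 exon was kept in 53.2%, 63.8% and 51.1% of FPKM in shALKBH3, against 40.4%, 29.4% and 37.3% in NC. Every shALKBH3 library was above every NC library, by 20.3 percentage points on average (limma adjusted p = 0.83 for the exon). The skipping transcript RBM34-203, which has an incomplete end, measured 9.39, 6.89 and 11.2 FPKM in shALKBH3, against 19.2, 20.6 and 17.9 FPKM in NC, and had the smallest transcript-level value of the members (log2 difference -1.02, SE 0.185, limma adjusted p = 0.15). RBM34-201, which keeps the exon, had 10.7, 12.1 and 11.7 FPKM in shALKBH3, against 13.1, 8.58 and 10.6 FPKM in NC. The keeping transcript had overlapping groups and the skipping one did not. The SRSF7 exon was kept in 79.2%, 63.1% and 80.1% in shALKBH3, against 47.1%, 58.8% and 66.3% in NC, with overlap; SRSF7-201, one of the transcripts that keep it, took 63.6%, 55.1% and 67.4% of the sum in shALKBH3, against 40.3%, 50.5% and 35.7% in NC, without overlap.

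SRSF10 kept a 54-nt coding exon in 71.8%, 69.1% and 69.8% of FPKM in shALKBH3, against 74.5%, 79.7% and 81.9% in NC, without overlap (limma adjusted p = 0.86). That reading rests on SRSF10-204 and SRSF10-211, with 7.63 FPKM together on average in a gene sum of 20.9 FPKM. A 51-nt form of the exon was read from SRSF10-207 against the same SRSF10-211. That form was kept in 55.1%, 51.6% and 61.7% in shALKBH3, against 57.0%, 67.3% and 70.6% in NC, with overlap. The 231-nt exon of RBM10, itself a regulator of exon skipping, was kept in 96.8%, 93.4% and 34.7% in shALKBH3, against 44.6%, 49.6% and 56.3% in NC. Its first and second shALKBH3 libraries lay above all NC libraries and the third below all of them. HNRNPK kept a 72-nt exon in 95.4% to 96.2% of FPKM in shALKBH3 and in 95.8% to 96.1% in NC.

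**Figure D4:**
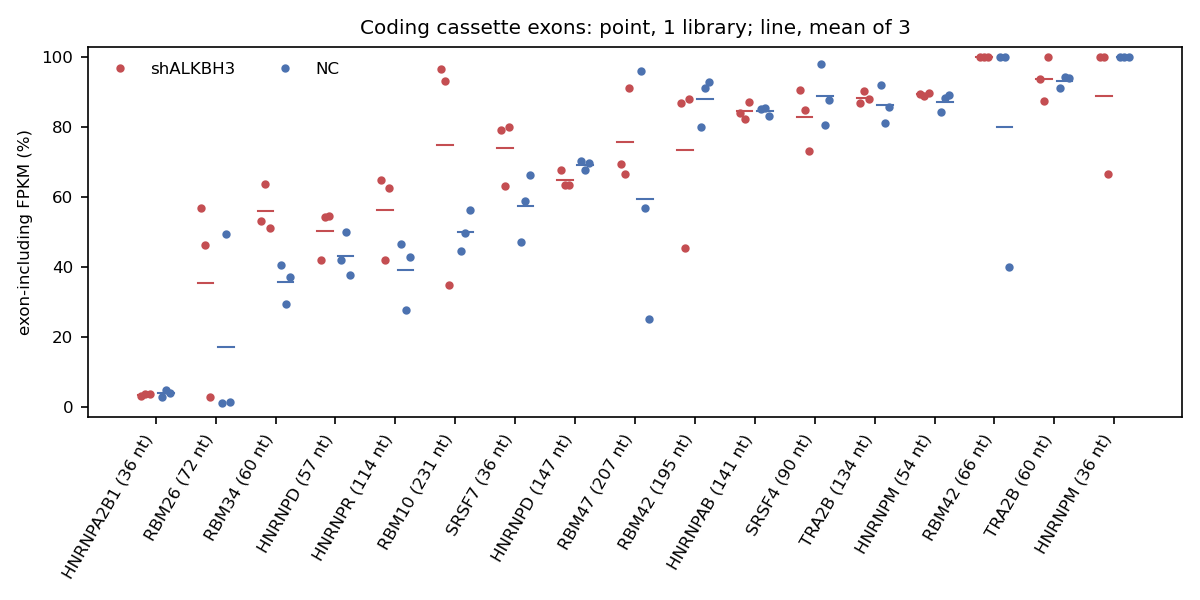
Inclusion of 17 coding cassette exons, as the % of FPKM in transcripts that keep the exon, with each library as a point and the mean of 3 as a line, shALKBH3 in red left of NC in blue. Shown are exons with a mean of at least 10 FPKM in the transcripts that span them and a mean inclusion between 1% and 95%; groups do not overlap for the 60-nt exon of RBM34, while HNRNPAB and HNRNPA2B1 have groups that lie close together.

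Genes that act with the SR proteins and hnRNPs were read from lists. Of 13 genes for SR protein kinases, phosphatases and import, 12 were listed and 11 tested, of which 0 were higher and 1 was lower, PPP1CC (the gamma catalytic subunit of protein phosphatase 1, which dephosphorylates SR proteins). Of all genes tested, 1.28% passed the same limma threshold as higher and 0.477% as lower. PPP1CC measured 61.6, 68.8 and 66.2 FPKM in shALKBH3, against 86.8, 88.7 and 88.8 FPKM in NC, without overlap (log2 difference -0.42, SE 0.070, limma adjusted p = 0.048). That call was lost on leaving out any single library (limma adjusted p 0.099 to 0.19). The SR protein kinase CLK3 had the next smallest p, at 3.42 ± 0.248 FPKM in shALKBH3 and 4.55 ± 0.812 FPKM in NC (SD, n = 3 each; log2 difference -0.32).

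Of 38 spliceosome core genes 0 passed by limma, and their median log2 difference was -0.07. At an unadjusted p under 0.05 0 were higher and 5 lower, together 13.2%, against 17.1% of all genes in both directions. Of the 10475 genes tested, 854 were lower at that p. The groups did not overlap for 8 core genes, all lower in shALKBH3 (21.1%, against 12% of all genes lower). SNRPE, a core Sm protein, had 88.2 ± 4.36 FPKM in shALKBH3 and 118 ± 12.0 FPKM in NC (SD, n = 3 each; log2 difference -0.41, limma adjusted p = 0.11), and SNRPF, another, had 60.4 ± 1.46 FPKM in shALKBH3 and 75.4 ± 5.61 FPKM in NC (SD, n = 3 each; log2 difference -0.31). Of other splicing regulators 45 genes were tested under 46 gene IDs, since MATR3 has 2, and 0 passed. Their median was -0.06, and 4 of them were higher and 2 lower where p was under 0.05 before adjustment. FUBP1 measured 42.5 ± 1.23 FPKM in shALKBH3 and 35.0 ± 2.88 FPKM in NC, and EWSR1 78.2 ± 4.63 FPKM in shALKBH3 and 91.8 ± 4.96 FPKM in NC (SD, n = 3 each). Of 17 genes of nonsense-mediated decay and the exon junction complex 0 passed, and the median was -0.04. Where p was under 0.05 before adjustment, 1 was higher and 0 lower (5.88%, against 17.1% of all genes in both directions). The kinase SMG1 differed by 1.10 on the log2 scale, with 8.34, 9.98 and 10.2 FPKM in shALKBH3, against 1.01, 8.06 and 5.44 FPKM in NC.

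**Figure D5:**
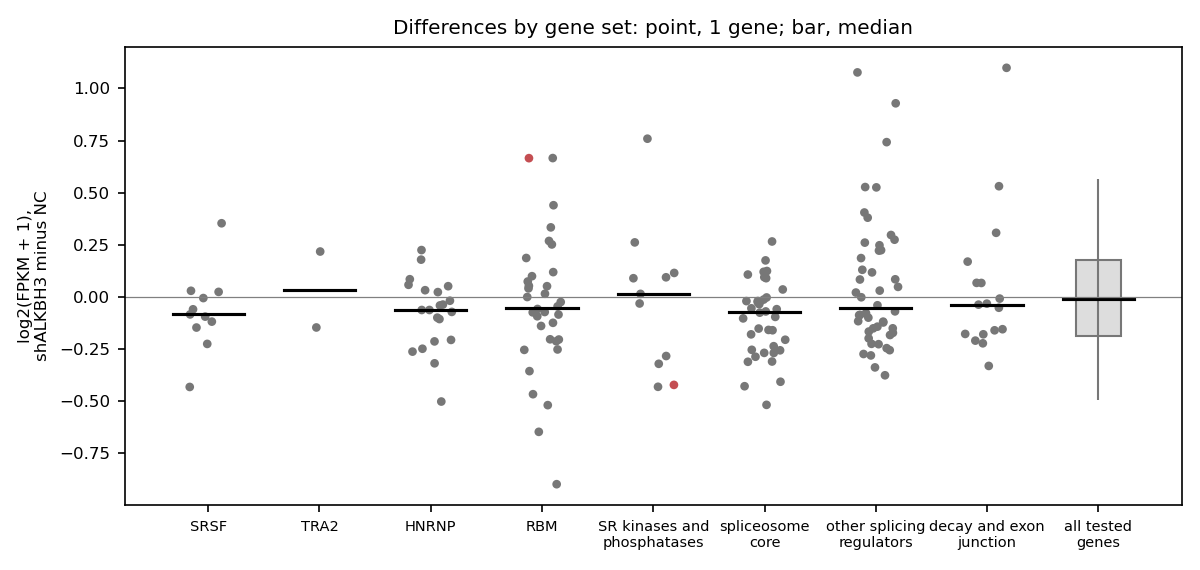
Difference between shALKBH3 and NC on the log2(FPKM + 1) scale for each gene of the SRSF, TRA2, HNRNP and RBM families and of the 4 lists, 1 point per gene, with a bar at the median; the box at the right spans the quartiles of all 10475 genes tested and its line runs from the 5% to the 95% quantile. Medians of the families and lists lie between -0.08 and 0.03, and the red points are RBM43 and PPP1CC.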

How the data were processed

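Line 92.1 libraries were made from fragmented, random-primed total RNA with dUTP in the second strand, per the labels' protocols. The authors deposited FPKM per transcript, per the file headers; the submitters' processing notes name build hg19, HTSeq 0.6.0 and DESeq2 without their roles, and the aligner, the FPKM estimator and the gene models behind the values were not given in those sources. Values reach down to 1e-06 FPKM, so whole reads could not be recovered and no counting interval is given. Of 28900 transcripts, 28796 matched GENCODE release 29 (GRCh38) without version; the rest were left out. It supplied names, types, lengths, exons, coordinates and the printed sequences, by transcript identifier.

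FPKM were summed by gene. Gene sums and single transcripts with a mean of at least 1 FPKM were tested as log2(FPKM + 1), and shares and exon inclusion as the arcsine square root, with limma 3.58.1 in R 4.3.3 (empirical Bayes with a variance trend, two-sided, Benjamini-Hochberg over everything tested, threshold 0.05). Scripts were checked on simulated data. Python 3.11.15, pandas 2.3.3, numpy 2.4.6, Biopython 1.88 and matplotlib 3.10.9 prepared the tables, alignments and plots.

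Genes were named by rule: ALKBH3; every member past the threshold; in SRSF, HNRNP and RBM the 4 members with the smallest p and the 2 with the highest mean; both TRA2 genes; the 8 transcripts with the smallest share p and those with the largest non-overlapping change; in each list the genes past the threshold and the 2 with the smallest p. Others were chosen after their values were seen. Results for 1 listed gene and 1 cassette exon are not reported here, and that exon is left out of the plot. Members and lists were chosen with earlier results of these data known. A planned test of unproductive transcripts could not be made because no member lists one. Alternatives were the pseudocount, filters, scaling, the variance model, a length and GC correction, the most abundant transcript, diffSplice, a replicate block and leaving out each library.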

Additional observations from a re-analysis of the deposited data

How the results depend on the processing

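The count of 0 members lower held in all 16 alternatives. The count of members higher was 1 and became 0 with no filter on low values, with quantile normalization, without the variance trend, with the most abundant transcript, with the replicate block, with the block plus the length and GC correction, and on leaving out any library (0 to 0). The member median of -0.06 became -0.045 with quantile normalization and 0.030 with equal sums of listed FPKM, where the median of all genes was 0.07, and ran from -0.079 to -0.041 on leaving out each library. Member share calls ran from 0 to 1 on leaving out each library (HNRNPU-221 without the third shALKBH3 library) and were 1 with diffSplice (HNRNPA1-201); single-transcript calls ran from 0 to 1 (HNRNPA1-201 without the second NC library). Kinase-list calls lower were 0 with the replicate block and 0 to 0 on leaving out each library. Calls higher among the other splicing regulators ran from 0 to 2 (PTBP1 and SRRM1 without the second NC library). ALKBH3 kept its direction and missed the threshold with the most abundant transcript (-1.24, limma adjusted p = 0.063), the replicate block (-1.24, 0.098) and the block plus the length and GC correction (-1.14, 0.14). Of the values for single genes and shares, 446 of 476 kept their direction and side of the threshold, 19 lost a call and 11 changed sign. The sign changes were SRSF11 (-0.10) and HNRNPM (-0.58) with the most abundant transcript, SRSF9 with equal sums (0.033), with the length and GC correction, both without the block (0.055) and with it (0.055), and without NC replicate 1 or shALKBH3 replicate 1 (-0.17 to 0.072 over the libraries left out), HNRNPA2B1 with quantile normalization (0.037) and equal sums (0.057), and RBM17 with equal sums (0.033) and without shALKBH3 replicate 1 (-0.12 to 0.022 over the libraries left out). The cause was not tested for these. The number of all genes called was 184 and ran from 20 with the replicate block to 233 with the length and GC correction, 132 without the variance trend, 105 with the most abundant transcript, 31 with the block plus the length and GC correction, and 48 to 110 on leaving out each library. Over all genes tested, same-numbered libraries did not deviate together (correlations of -0.09, 0.08 and -0.01). Differently numbered libraries gave -0.14 to 0.14. With 3 libraries per group these correlations cannot decide whether libraries were paired by replicate number. Values with the block are given only here. The share of transcripts typed as unproductive, planned with its alternatives, was not run because no member lists one. Depth is unknown, so no limit from counting can be given.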
